A study of Mus musculus with 18 samples.

Results

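Cytochrome P450 and glutathione transferase genes were followed across 18 mouse lung tumours in which p53 had or had not been restored. Members were taken by gene symbol: the Cyp genes with a family number that starts with 1 to 4, the Gst genes of the a, m, p, t, k and o classes, and Ephx1, with Cyp2f2 left out. This gave 75 genes (57 Cyp, 17 Gst and Ephx1) among the 12393 genes with a probe set of 1 symbol. Their 93 probe sets were reduced to 1 per gene, the one with the highest mean over the arrays. A gene was called detected where its signal exceeded the array's median on at least 4 arrays, and 24 of the 75 members were detected.

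Cytochrome P450 enzymes are haem proteins that oxidise drugs, carcinogens, steroids and fatty acids, often as the first step of their removal. Microsomal epoxide hydrolase, encoded by Ephx1, opens the reactive epoxides that some of these oxidations produce, and glutathione transferases couple glutathione to reactive products. In mouse lung, club cells of the airways and alveolar type 2 cells carry much of this capacity.

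All mice were of the C57/B6-129SvJae strain and 10 weeks old, and RNA came from microdissected lung tumours, grade 2 adenomas or grade 3 adenocarcinomas. Treated mice had received tamoxifen intraperitoneally in 2 injections, which restored p53, and their tumours were taken on day 7 after the first. Of the 10 treated tumours 6 were of grade 3 and 4 of grade 2, and the 8 untreated tumours were split evenly between the grades. The sources used here do not give the tumour-initiating allele, the p53 allele, the recombinase with its promoter, or a vehicle injection for the untreated mice. Tumour names give the mouse number and then the tumour number. All 6 treated grade 3 tumours (8688T1, T2, T3, T5, T6 and T11) and 3 of the 4 treated grade 2 tumours (8688T8, T9 and T10) came from 1 female, mouse 8688; the other treated tumour, 8639T4, came from a male. The 8 untreated tumours came from males: 8584T3, 8565T1, 8629T10 and 8629T12 of grade 3, and 8700T1, 8700T3, 8565T3 and 8565T4 of grade 2. The effect of treatment thus cannot be told apart from that of mouse and sex for grade 3, and for grade 2 only 8639T4 breaks the overlap. Because tumours of 1 mouse share that animal, p-values over tumours are too small. In tumour pieces, fewer cells of a type and less RNA per cell cannot be told apart.

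Array medians lay between 6.05 and 6.18 on the log2 scale of the deposited signals, and correlations between arrays between 0.974 and 0.997. The number of arrays limits the precision. Sftpc, the surfactant gene that defines alveolar type 2 cells, was between 12.3 and 13.5 in every tumour. The excess of 3' over 5' signal of control transcripts, a sign of RNA breakdown, was 2.62 in 8688T3 and 1.85 in 8639T4, against 1.05 or less in the other tumours. Over all 7300 detected genes, limma called 34 in the comparison of treatment in grade 3, 5 in treatment in grade 2, 13 in grade among untreated tumours, and 0 in grade among treated tumours and in the difference between the treatment effects of both grades.

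The lung tumours carried signal for a minority of the P450 genes and for most of the glutathione transferase genes. Of the 57 Cyp genes 11 were detected, and of the 17 Gst genes 12. The 24 detected members are 32.0% of the 75, against 58.9% of all 12393 genes that were detected. Among the Cyp1 genes 2 of 3 were detected (Cyp1a1 and Cyp1b1), among the Cyp2 genes 4 of 30 (Cyp2b10, Cyp2d22, Cyp2j6 and Cyp2s1), among the Cyp3 genes 1 of 5 (Cyp3a13), and among the Cyp4 genes 3 of 9 (Cyp4b1, Cyp4f16 and Cyp4v3). Of 10 genes with a family number of 2 digits, Cyp39a1 was detected, which encodes an oxysterol hydroxylase of bile acid synthesis. The alpha class gave 2 of 3 (Gsta3 and Gsta4) and the mu class 3 of 7 (Gstm1, Gstm2 and Gstm5). Both pi genes (Gstp1 and Gstp3), all 3 theta genes (Gstt1, Gstt2 and Gstt3), Gstk1 and Gsto1 were detected.

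The 51 undetected members had mean signals between 1.46 and 5.47, and 41 of them were below 3. They include the main P450 genes of liver, among them Cyp1a2 at 2.41, Cyp2e1 at 3.95 and Cyp3a11 at 1.76, and liver genes known for a sex difference, Cyp2b9 at 2.28 among them. The steroid-forming Cyp11a1 and Cyp17a1 had means of 2.42 and 2.45. At the edge of the rule, Cyp1a1 was detected on exactly 4 arrays, while Cyp2c68 exceeded the median on 2 and Cyp27a1 on 1. The other 49 exceeded it on none. Undetected members entered no test, and a signal at this level does not show that the transcript is absent.

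Ephx1 was the single member that passed the test. It was higher in treated than in untreated grade 3 tumours, by 2.36 on the log2 scale (SE 0.484, 95% interval 1.34 to 3.38), which is 5.14-fold. In untreated grade 3 tumours its log2 signal was 7.61 in 8584T3, 7.98 in 8565T1, 7.49 in 8629T10 and 6.48 in 8629T12 (mean 7.39 ± 0.64 SD, n = 4). In treated grade 3 tumours the lowest value was 9.26, the median 9.93 and the highest 10.96 (mean 9.94 ± 0.63 SD, n = 6). Every treated tumour lay above every untreated one, and no value of either group fell between 7.98 and 9.26. limma gave an adjusted p of 0.0377 over all genes tested. The call thus made 1 of 24 members, beside 0.466% of all genes tested, and 1 of 24 in the higher direction, beside 0.192%.

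The Ephx1 call did not hold in every setting, although its size did. Leaving out 8688T1, 8688T3, 8629T10 or 8629T12 in turn gave differences of 2.15, 2.45, 2.39 and 2.07 with adjusted p-values of 0.0531, 0.0586, 0.0809 and 0.101. Without both tumours of mouse 8629 it was 1.94 (adjusted p = 0.208), and without the tumours of mouse 8565 it was 2.63 (adjusted p = 0.0672). With sex as a covariate the difference was 2.18 (adjusted p = 0.337), and over means per mouse it was 2.41 (adjusted p = 0.9998), where the treated grade 3 group is 1 mouse.

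In grade 2 tumours the Ephx1 signals of treated and untreated tumours overlapped. Untreated, it measured 9.87 in 8700T1 and 10.21 in 8700T3, but 8.36 in 8565T3 and 8.88 in 8565T4. The treated tumours 8688T8, 8688T9, 8639T4 and 8688T10 gave 10.08, 9.45, 9.56 and 9.88. The untreated tumours of mouse 8565 lay below all treated ones and those of mouse 8700 did not. The difference was 0.49 (SE 0.494, 95% interval -0.55 to 1.53, adjusted p = 0.868). It turned to -0.33 without mouse 8565. The treatment effect was 1.87 larger in grade 3 than in grade 2 (SE 0.564, 95% interval 0.68 to 3.06), with an adjusted p of 0.539. Over this difference of effects 0 of 24 members passed, beside 0.0% of all genes. At an unadjusted p under 0.05 there were 3 members (Ephx1, Gstt1 and Cyp3a13), beside 9.11%. Cyp3a13 was at 9.38 in the untreated grade 3 tumour 8584T3, against 6.19 to 6.58 in the others of that group.

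**Figure D1:**
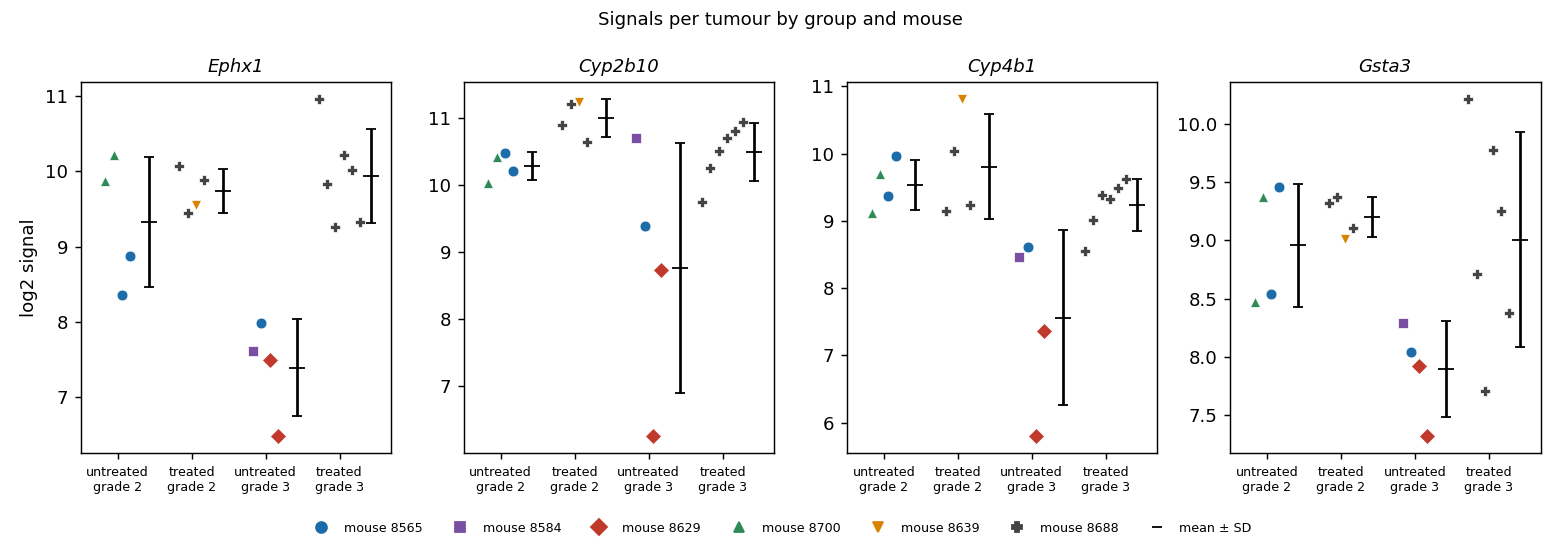
Log2 signal of Ephx1, Cyp2b10, Cyp4b1 and Gsta3 (vertical axes, separate scales) in each tumour, by group; the symbol gives the mouse and the black bar the group mean ± SD. The 4 untreated grade 3 tumours have Ephx1 between 6.48 and 7.98, below all other tumours, and both tumours of mouse 8629 give the lowest Cyp4b1 signals.

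Cyp2b10 and Cyp4b1 were lowest in the untreated grade 3 tumours of 1 mouse. Cyp2b10 encodes a P450 that is induced by phenobarbital-like compounds in liver, and Cyp4b1 encodes a P450 of lung that activates some protoxins. Cyp4b1 measured 5.80 in 8629T10, 7.37 in 8629T12, 8.46 in 8584T3 and 8.61 in 8565T1. In treated grade 3 tumours it ran from 8.56 over a median of 9.35 to 9.62. The 2 groups met at 8.56 to 8.61, and both tumours of mouse 8629 lay more than 1 log2 unit under every other tumour of the series. The difference was 1.79 (SE 0.543, 95% interval 0.65 to 2.94, adjusted p = 0.196), and without mouse 8629 it was 0.96 (adjusted p = 0.555). Without 8584T3 it was 2.04 and passed (adjusted p = 0.0481), as it did without a term for the animal (1.67, adjusted p = 0.0409).

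Cyp2b10 measured 6.26 in 8629T10, 8.73 in 8629T12, 9.38 in 8565T1 and 10.70 in 8584T3. In treated grade 3 tumours it ran from 9.75 over a median of 10.61 to 10.94. The value of 8584T3 lay within the treated range, and 8629T10 lay far below the rest. The difference was 1.64 (SE 0.66, 95% interval 0.25 to 3.02, adjusted p = 0.438). It was 2.35 without 8584T3 (adjusted p = 0.0231) and 0.54 without mouse 8629 (adjusted p = 0.742). The other probe sets of Cyp2b10 gave plain differences of group means of 1.89 and 2.08, beside 1.73 for the one used.

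Cyp2d22, a further member of the Cyp2 family, was also lowest in mouse 8629, at 6.23 in 8629T10 and 6.28 in 8629T12. In the remaining tumours it lay between 7.18 and 8.80. Its treatment difference in grade 3 was 0.57 (SE 0.462, adjusted p = 0.74). Fmo1, a flavin monooxygenase outside the member list, had its lowest values in the same tumours, 5.91 and 6.84, against 7.59 or more elsewhere.

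Gsta3 encodes an alpha class transferase known for conjugating aflatoxin epoxide in the mouse. It measured 8.29 in 8584T3, 8.04 in 8565T1, 7.92 in 8629T10 and 7.32 in 8629T12. In treated grade 3 tumours the values were 10.21, 8.71, 7.71, 9.78, 9.25 and 8.38 in the order T1, T2, T3, T5, T6 and T11 of mouse 8688. On this probe set 1 treated tumour, 8688T3, thus lay among the untreated ones. It is also the tumour with the highest 3' excess, and the part of that in its value was not tested. The difference was 1.04 (SE 0.515, 95% interval -0.04 to 2.12, adjusted p = 0.586). The second Gsta3 probe set, above the array median on 8 arrays, gave a plain difference of 1.59, beside 1.11 for the one used. On that second set 8688T3 measured 6.29 and the groups did not overlap. Treated grade 3 tumours were at 5.63 or more there and untreated ones at 5.55 or less.

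The remaining glutathione transferase genes gave small differences in grade 3. Gstm1, a mu class gene, ran from 11.03 to 12.37 in the treated tumours (mean 11.48 ± 0.48 SD) and from 10.32 to 11.21 in the untreated ones (mean 10.88 ± 0.39 SD), a difference of 0.64 (SE 0.283, adjusted p = 0.516). Gsta4, whose product handles the lipid peroxidation product 4-hydroxynonenal, was the member with a lower signal at an unadjusted p under 0.05. It ran from 11.16 to 11.68 in treated and from 11.40 to 12.44 in untreated tumours, a difference of -0.55 (SE 0.235, adjusted p = 0.484). Gstp1, Gstp3, Gstm2 and Gstt1 differed by 0.26, 0.21, 0.22 and 0.16, and Gsto1, Gstk1, Gstm5 and Gstt3 by -0.57, -0.44, -0.44 and -0.29. Gstt2 differed by -0.03 (95% interval -0.48 to 0.43).

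Cyp39a1 gave a small but fully separated difference in grade 3. Untreated tumours measured 9.13, 8.76, 9.35 and 9.35 in 8584T3, 8565T1, 8629T10 and 8629T12, and treated tumours ran from 9.47 over a median of 9.61 to 9.82. The gap between the groups was thus from 9.35 to 9.47. The difference was 0.44 (SE 0.208, adjusted p = 0.566). With Ephx1 it made 2 of 24 members without overlap between the groups, beside 4.92% of all genes tested. At an unadjusted p under 0.05 there were 5 members of 24, beside 8.84%. The members' median difference was 0.16, with 13 of 24 above 0, and that of all genes 0.04, with 56.9% above 0.

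**Figure D2:**
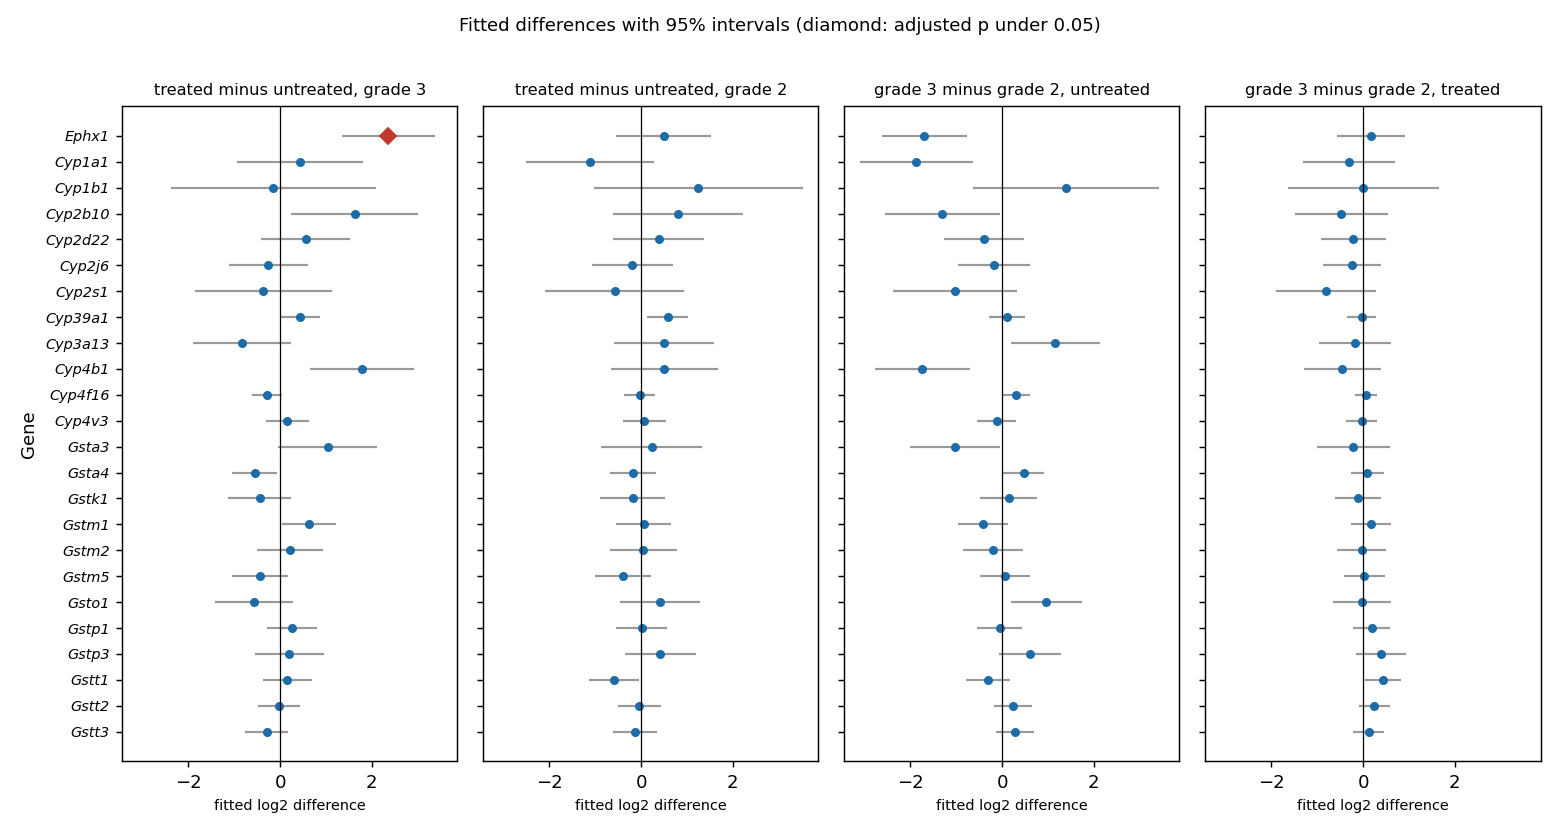
Fitted log2 differences of the 24 detected members (points) with 95% intervals (lines) in the 4 pairwise comparisons; a red diamond marks an adjusted p under 0.05. Ephx1 at 2.36 in the first panel is the only diamond. In the third panel the intervals of Ephx1, Cyp4b1, Cyp1a1, Cyp2b10 and Gsta3 lie below 0. Those of Gsto1, Cyp3a13, Gsta4 and Cyp4f16 lie above 0, and no member there has an adjusted p under 0.05.

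Grade among untreated tumours gave the largest number of members with low unadjusted p-values, but no call. Of 24 members 0 passed with limma, beside 0.178% of all genes tested. At an unadjusted p under 0.05 there were 9 members (37.5%), beside 12.5% of all genes, and 5 members (20.8%) did not overlap between grades, beside 6.45%. Ephx1, Cyp4b1, Cyp1a1, Cyp2b10 and Gsta3 had lower signals in grade 3, and Gsto1, Cyp3a13, Gsta4 and Cyp4f16 higher ones. For Cyp3a13 the grade 3 tumour 8584T3 measured 9.38. The other untreated grade 3 tumours ran from 6.19 to 6.58, and those of grade 2 from 5.78 to 6.25. This comparison shares its untreated grade 3 tumours with the comparison of treatment in grade 3. The members' median difference was -0.08 with 11 of 24 above 0, and that of all genes 0.00 with 49.9% above 0.

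The grade 2 values of Ephx1 given above, 8.36 to 10.21, did not overlap with those of grade 3, 6.48 to 7.98. The difference was -1.70 (SE 0.438, 95% interval -2.62 to -0.77, adjusted p = 0.138), and -1.94 with an adjusted p of 0.0292 without a term for the animal. Within mouse 8565, the single untreated mouse with both grades, grade 3 minus grade 2 was -0.64 for Ephx1.

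Cyp4b1 measured 9.12, 9.69, 9.36 and 9.97 in the untreated grade 2 tumours 8700T1, 8700T3, 8565T3 and 8565T4, all above the grade 3 tumours. The difference was -1.74 (SE 0.492, adjusted p = 0.171). It was -1.98 with an adjusted p of 0.0489 without the animal term, and -1.02 without mouse 8629. Within mouse 8565 it was -1.05. Cyp2b10 lay between 10.03 and 10.48 in grade 2, which 8584T3 exceeded, and differed by -1.31 (SE 0.598, adjusted p = 0.377).

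Gsta3 measured 8.47, 9.37, 8.54 and 9.45 in the same order of grade 2 tumours, just above the highest grade 3 value of 8.29. The difference was -1.02 (SE 0.466, adjusted p = 0.377), and within mouse 8565 it was -0.96. The second Gsta3 probe set gave a plain difference of group means of -0.99, beside -1.06 for the one used. On that second set the grades overlapped, with 8584T3 at 5.55 and the grade 2 tumour 8700T1 at 5.23. Gsto1, the omega class gene, measured 9.98, 10.37, 11.51 and 10.24 in grade 2, against 11.56, 11.35, 11.01 and 12.49 in 8584T3, 8565T1, 8629T10 and 8629T12. One grade 2 tumour, 8565T3, lay within the grade 3 range. The difference was 0.97 (SE 0.368, adjusted p = 0.3), and the second Gsto1 probe set gave a plain difference of group means of 1.07, beside 1.08 for the one used. Gstp3 and Gstt2 were separated in the higher direction, with differences of 0.61 (SE 0.324, adjusted p = 0.453) and 0.24 (SE 0.196, adjusted p = 0.61).

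Cell markers moved between the same groups, and their part in the differences above was not tested. The level of the liver and gut list was taken as the mean log2 signal of its 10 measured genes. It ran from 4.26 to 5.24 in untreated grade 3 tumours, against 3.53 to 3.95 in treated grade 3 and 3.48 to 3.93 in untreated grade 2. Of its 10 measured genes 7 (Alb, Apoa1, Apoa2, Ttr, Fgb, Cdx2 and Gkn1) never exceeded the array median. Of the detected ones, Lgals4, a galectin of gut epithelium, passed with treatment in grade 3 at -1.91 (SE 0.288, adjusted p = 0.00483), and both it and Hnf4a passed with grade among untreated tumours. The club cell list, with 6 of 9 genes detected, ran from 7.05 to 7.62 in untreated grade 3 and from 4.97 to 6.42 in treated grade 3. In untreated grade 2 it ran from 5.73 to 7.77. With treatment in grade 3, 0 of its 6 detected genes were above 0 (median -1.35). For grade among untreated tumours 2 of 6 were (median -0.21). Of all genes tested, 56.9% and 49.9% were above 0 in these comparisons. Krt15 and Nkx2-1 of that list never exceeded the median. Of this list Muc5b, a secreted mucin, passed: it was lower in treated than in untreated grade 3 tumours by a difference of -3.06 (SE 0.457, adjusted p = 0.00483) and higher in untreated grade 3 than grade 2 by 3.17 (SE 0.413, adjusted p = 0.00357). It exceeded the array median in the 4 untreated grade 3 tumours alone, so the detection rule sets this direction. Scgb3a2 differed by -4.58 with treatment in grade 3 without overlap (SE 1.73, adjusted p = 0.384). Scgb1a1, the defining club cell gene, differed by -0.92 between treated and untreated grade 3 tumours (adjusted p = 0.678). Cyp2f2, the club cell P450 left out of the members, differed by -0.61 (adjusted p = 0.87). The alveolar type 2 list ran from 11.27 to 11.79 in untreated and from 11.58 to 12.11 in treated grade 3 tumours. With treatment in grade 3, 9 of its 9 detected genes were above 0 (median 0.28). For grade among untreated tumours 0 of 9 were (median -0.37), and none passed in either comparison. The alveolar type 1 list, with all 6 measured genes detected, ran from 10.45 to 10.84 in untreated and from 10.93 to 11.31 in treated grade 3 tumours. Its genes were above 0 in 6 of 6 with treatment in grade 3 (median 0.37) and in 0 of 6 for grade among untreated tumours (median -0.30). Its gene Rtkn2 passed with treatment in grade 3 at 1.95 (SE 0.251, adjusted p = 0.0015). Of the erythroid list 1 of 3 measured genes was detected, the globin gene Hbb-b2, which was lower with treatment by differences of -3.09 in grade 3 (adjusted p = 0.00123) and -2.998 in grade 2 (adjusted p = 0.00256). The list ran from 3.705 to 4.09 in treated and from 5.14 to 5.74 in untreated grade 3 tumours. The endothelial list ran from 7.55 to 8.34 in untreated grade 3 and from 8.10 to 9.04 in untreated grade 2 tumours. In that difference 0 of 8 genes were above 0, beside 49.9% of all genes, with a median of -0.64. At an unadjusted p under 0.05 there were 4 of 8, beside 12.5% of all genes.

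The upstream sequences of the members that the grade 3 and grade 2 results turn on are shown: Ephx1, Cyp4b1, Cyp2b10 and Gsta3, which had lower mean signals in untreated grade 3 tumours than in the other 3 groups, and Cyp1a1, a standard target of the Ah receptor. RefSeq promoter windows (GRCm38.p6) were matched by symbol for 20 of the 24 detected members; Cyp39a1, Cyp2d22, Gsta4 and Gstt2 had no entry in the table used. Each window gives the 250 bases before the annotated start, 5′ to 3′ on the gene's strand. They lie at chr1:181017570-181017819 (minus strand) for Ephx1, chr4:115647722-115647971 (minus) for Cyp4b1, chr7:25897408-25897657 (plus) for Cyp2b10, chr1:21240335-21240584 (plus) for Gsta3 and chr9:57697363-57697612 (plus) for Cyp1a1. Capitals mark matches on either strand to TGACNNNGC, the core of the antioxidant response element, GCGTG, the core of the xenobiotic response element bound by the Ah receptor, and AGGTCA, a nuclear receptor half-site; matches of different motifs can overlap.
Ephx1: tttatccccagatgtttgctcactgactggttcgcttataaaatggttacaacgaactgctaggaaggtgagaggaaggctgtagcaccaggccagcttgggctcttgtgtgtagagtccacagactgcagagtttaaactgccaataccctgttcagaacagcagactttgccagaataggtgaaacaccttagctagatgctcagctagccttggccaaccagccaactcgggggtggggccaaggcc
Cyp4b1: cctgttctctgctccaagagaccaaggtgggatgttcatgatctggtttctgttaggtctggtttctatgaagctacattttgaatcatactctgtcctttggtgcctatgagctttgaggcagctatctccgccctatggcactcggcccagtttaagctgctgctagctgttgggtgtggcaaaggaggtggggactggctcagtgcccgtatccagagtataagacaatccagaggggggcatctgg
Cyp2b10: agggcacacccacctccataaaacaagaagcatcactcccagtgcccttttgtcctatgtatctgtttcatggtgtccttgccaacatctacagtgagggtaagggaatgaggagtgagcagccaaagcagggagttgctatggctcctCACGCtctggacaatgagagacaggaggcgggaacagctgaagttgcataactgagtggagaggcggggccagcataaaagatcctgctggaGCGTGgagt
Gsta3: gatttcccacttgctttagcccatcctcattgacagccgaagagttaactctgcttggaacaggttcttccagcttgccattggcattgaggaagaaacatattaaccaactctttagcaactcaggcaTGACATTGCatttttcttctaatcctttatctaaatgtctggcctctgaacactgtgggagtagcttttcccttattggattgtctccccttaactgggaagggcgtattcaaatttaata
Cyp1a1: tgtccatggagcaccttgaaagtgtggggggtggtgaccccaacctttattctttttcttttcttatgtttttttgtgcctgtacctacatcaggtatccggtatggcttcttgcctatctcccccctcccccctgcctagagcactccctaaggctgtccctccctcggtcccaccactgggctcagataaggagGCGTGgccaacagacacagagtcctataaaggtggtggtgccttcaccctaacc

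The Ephx1 and Cyp4b1 windows held none of the 3 motifs. GCGTG was found in 9 of the 20 member windows (Cyp1a1, Cyp1b1, Cyp2b10, Cyp4f16, Cyp4v3, Gstm1, Gstm5, Gstp1 and Gstp3), beside 28.2% of the 32851 windows of the same length in the table. Cyp1a1 had its match with the first base 54 bases before the start, and Cyp2b10 had 2 matches. TGACNNNGC was found in 2 of 20 (Gsta3 and Gstm5), beside 10.2% of all windows; in Gsta3 it begins 121 bases before the start. AGGTCA was found in 1 of 20 (Gstk1), beside 14.0%. A match is a description of letters, and the arrays measured no binding.

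Several members are neighbours in the genome. Gstt1 and Gstt3, Gstm1 and Gstm2, and Cyp2b10 and Cyp2s1 are adjacent protein-coding genes, and 1 such gene lies between Gstp1 and Gstp3 and between Gstt1 and Gstt2. Neighbours did not share their differences throughout: Cyp2b10 differed by 1.64 and Cyp2s1 by -0.36 (SE 0.71, adjusted p = 0.891) with treatment in grade 3. Close paralogues can share probes. The probe sets used for Cyp2b10, Cyp4v3, Gstm1 and Gsto1 carry names that mark probes shared with other genes' transcripts, so their signals may include a near copy. Those for Cyp1a1 and Gstp1 are named for several transcripts of the same gene.

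Treatment in grade 2 gave no member call. Of 24 members 0 passed with limma, beside 0.0685% of all genes. At an unadjusted p under 0.05 there were 2 (Cyp39a1 and Gstt1), beside 6.99%, and 3 did not overlap between groups (Cyp2b10, Cyp3a13 and Gstt1), beside 8.08%. The members' median difference was 0.05, with 14 of 24 above 0, against 0.02 and 53.9% for all genes.

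Cyp39a1 measured 9.98, 9.47, 9.54 and 9.62 in 8688T8, 8688T9, 8639T4 and 8688T10, and 9.62, 9.25, 8.60 and 8.61 in 8700T1, 8700T3, 8565T3 and 8565T4. Both tumours of mouse 8565 were low, and 8700T1 lay within the treated range. The difference was 0.59 (SE 0.213, 95% interval 0.14 to 1.03, adjusted p = 0.51). Gstt1, a theta class transferase that acts on small halogenated compounds, measured 9.28, 8.94, 8.60 and 8.84 in the treated tumours. In the untreated tumours it measured 9.45, 9.36, 9.36 and 9.74, all above the treated ones. The difference was -0.59 (SE 0.261, 95% interval -1.14 to -0.04, adjusted p = 0.695).

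On the probe set used, Cyp2b10 measured 10.90, 11.21, 11.24 and 10.64 in the treated grade 2 tumours. All lay above the untreated ones, which lay between 10.03 and 10.48. The fitted difference was 0.80 (SE 0.674, adjusted p = 0.849). On the Cyp2b10 probe set whose name marks no shared probes, the groups overlapped, with treated 8688T10 at 10.20 and untreated 8565T4 at 10.54. On the remaining set they did not overlap, with a lowest treated value of 10.05 and a highest untreated one of 9.96. Cyp3a13, a gene of the main drug-oxidising family, lay between 6.28 and 6.84 in treated tumours and between 5.78 and 6.25 in untreated ones, a difference of 0.51 (SE 0.519, adjusted p = 0.873). The male tumour 8639T4 had the highest Cyp2b10, Cyp4b1 and Cyp2s1 signals of the series, at 11.24, 10.81 and 8.33, and the next highest 3' excess after 8688T3, whose part in these values was not tested.

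Grade among treated tumours gave 0 of 24 calls, beside 0.0% of all genes tested. At an unadjusted p under 0.05 there was 1 member (Gstt1), beside 1.93%, and 0 members were without overlap, beside 0.781%. Gstt1 was 9.39 ± 0.30 (SD, n = 6) in grade 3 and 8.92 ± 0.28 (SD, n = 4) in grade 2, a difference of 0.44 (SE 0.188, 95% interval 0.04 to 0.83, adjusted p = 0.997). Ephx1 differed by 0.17 (95% interval -0.57 to 0.92), Cyp4b1 by -0.46 (-1.29 to 0.38) and Cyp2s1 by -0.80 (-1.90 to 0.29). Within mouse 8688 grade 3 minus grade 2 was 0.13 for Ephx1, -0.24 for Cyp4b1 and 0.37 for Gstt1.

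**Figure D3:**
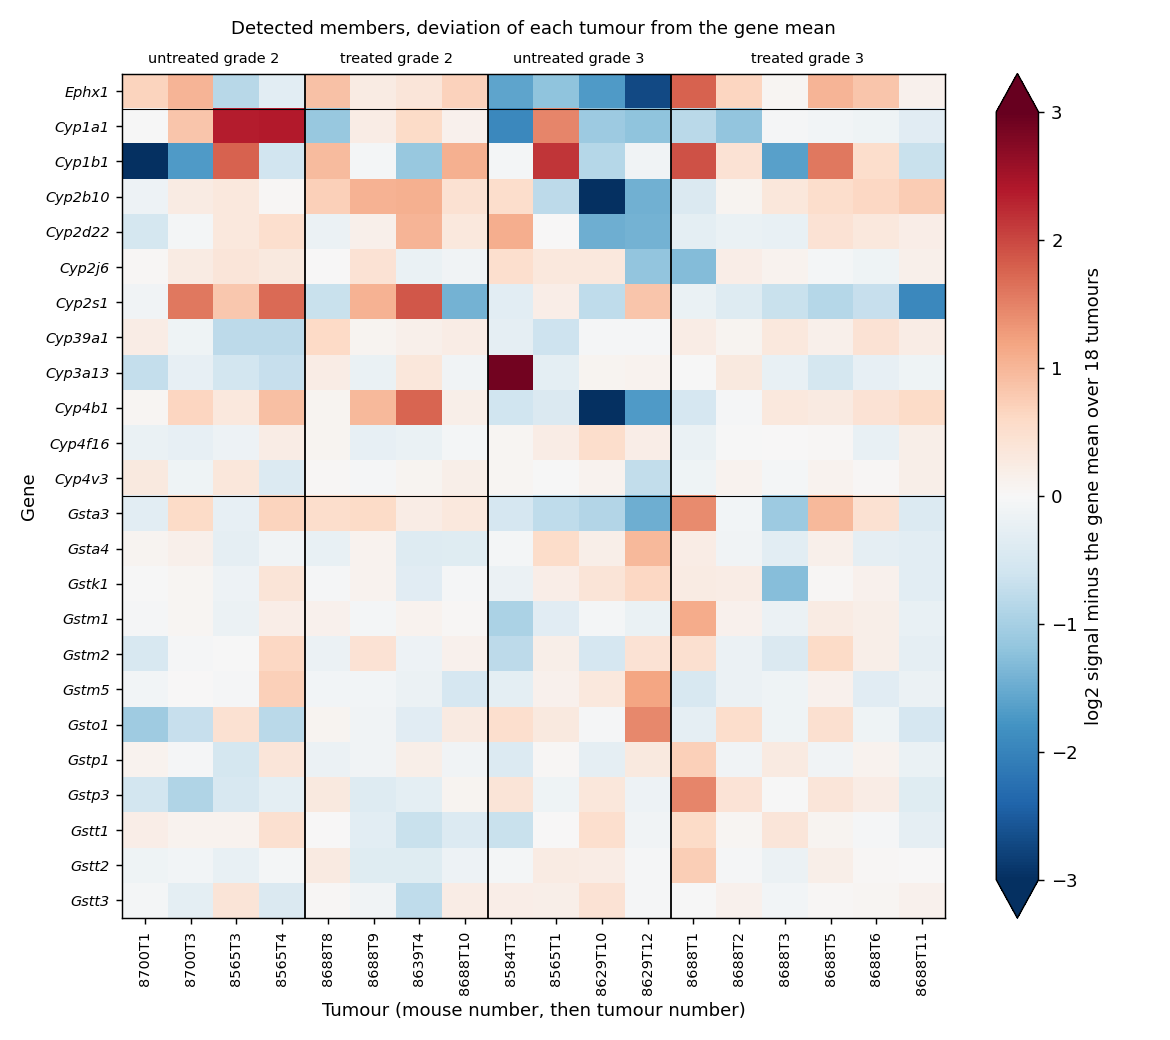
Deviation of each tumour (columns, ordered by group) from the gene's mean log2 signal over the 18 tumours, for the 24 detected members (rows; red above and blue below the mean, with values past 3 at the end colours). Blue cells of Ephx1 span the untreated grade 3 group, those of Cyp2b10 and Cyp4b1 are deepest in 8629T10, and 8688T1 is red in most Gst rows.

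The members ranged widely between tumours. The median range over the 18 tumours was 1.98 log2 units for the 24 members and 0.93 for all genes tested. The range was over 2 for 12 members and under 1 for Cyp4f16 alone, at 0.78. It was widest for Cyp1b1 (5.76), Cyp4b1 (5.01), Cyp2b10 (4.98), Ephx1 (4.48) and Cyp1a1 (4.31).

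Cyp1a1, the target gene by which Ah receptor activity is commonly read, followed the mouse more than the group. It measured 7.77 in 8565T3, 7.79 in 8565T4 and 6.87 in 8565T1, all 3 tumours of mouse 8565. The next values were 6.24 in 8700T3 and 5.99 in 8639T4, and the lowest was 3.47 in 8584T3. In treated grade 3 tumours it ran from 4.23 over a median of 5.18 to 5.38. The grade difference among untreated tumours was -1.87 (SE 0.591, adjusted p = 0.216), and -0.91 within mouse 8565. It was detected through 4 untreated tumours, the 3 of mouse 8565 and 8700T3, so this direction is partly set by the detection rule. Its treatment difference in grade 2 was -1.12 (SE 0.667, adjusted p = 0.796). Ahr, the receptor gene, lay between 9.89 and 10.83 in all tumours. Its highest values fell in the same 4 tumours: 10.83 in 8565T3, 10.67 in 8565T4, 10.61 in 8565T1 and 10.61 in 8700T3. Elsewhere it was 10.41 or less, and a relation between Ahr and Cyp1a1 was not tested.

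Cyp1b1, which oxidises oestrogens and aromatic hydrocarbons, had within-group spreads that exceeded its group differences. It measured 3.97 in 8700T1 and 5.90 in 8700T3, against 9.38 in 8565T3 and 9.74 in 8565T1. Treated grade 3 tumours ran from 5.97 over a median of 8.09 to 9.52. The group means were 7.96 and 7.88 in treated and untreated tumours of grade 3, and 7.81 and 6.57 in those of grade 2. Its lowest adjusted p in a pairwise comparison was 0.542.

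Cyp3a13 stood apart in 8584T3, at 9.38, against 6.84 or less in all other tumours. Cyp2s1, a P450 of epithelia outside the liver, ran from 4.55 to 6.28 in treated grade 3 tumours and from 5.73 to 7.32 in untreated ones. In grade 2 it ran from 5.07 to 8.33 with treatment and from 6.36 to 8.18 without. Grade 3 minus grade 2 was -1.02 (SE 0.642) in untreated and -0.80 (SE 0.521) in treated tumours, and neither passed (adjusted p = 0.514 and 0.997). Group means lay between 6.55 and 6.95 for Cyp2j6, between 7.91 and 8.27 for Cyp4f16 and between 10.60 and 10.81 for Cyp4v3, and single tumours were low for Cyp2j6 and Cyp4v3.

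**Figure D4:**
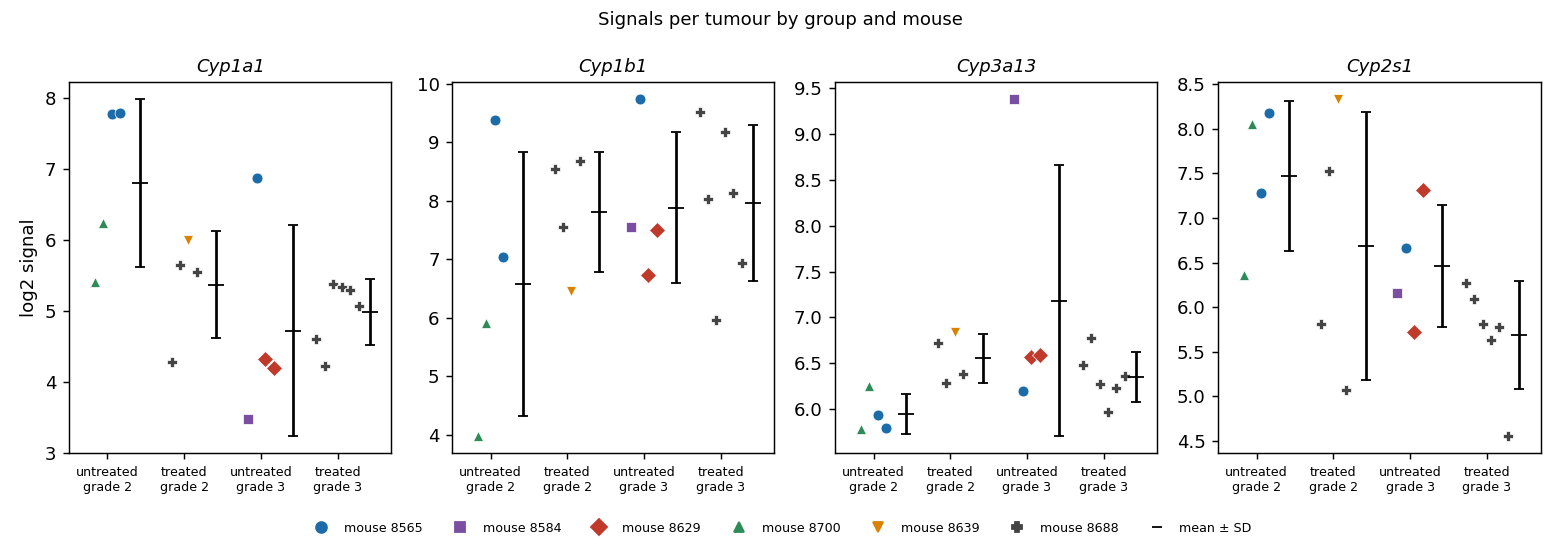
Log2 signal of Cyp1a1, Cyp1b1, Cyp3a13 and Cyp2s1 (vertical axes, separate scales) in each tumour, by group; the symbol gives the mouse and the black bar the group mean ± SD. The 3 tumours of mouse 8565 hold the highest Cyp1a1 values, 6.87 to 7.79, and 8584T3 alone has a Cyp3a13 signal of 9.38.

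One treated grade 3 tumour, 8688T1, was the highest of all 18 for 7 members (Ephx1, Gsta3, Gstm1, Gstp1, Gstp3, Gstt1 and Gstt2) and the lowest for Cyp2j6. Among the 6 treated grade 3 tumours it was the highest for Ephx1 and for 8 of the 12 Gst genes, and the lowest for 1 Gst gene, Gstm5. Of the 11 Cyp genes it was the lowest for 5 and the highest for 2, Cyp1b1 at 9.52 and Cyp2s1 at 6.28. Gstp3 measured 9.30 there and 7.46 to 8.25 in the other treated grade 3 tumours. Gstm1 measured 12.37, against 11.03 to 11.52, and Gsta3 10.21, against 7.71 to 9.78. Of the other Gstm1 probe sets above the array median on all 18 arrays, 1 again had 8688T1 highest, at 11.45. On the other, 8688T1 was at 9.63, below 8688T10 at 9.85. Cyp2b10, Cyp4b1 and Cyp2j6 measured 9.75, 8.56 and 5.41, each below the range of the other tumours of the group. The choice of this tumour came after its values were seen, and it received no test. The same counts were not made over all genes tested. Whether this tumour was as often extreme outside the members was thus not tested. Its 3' excess was 0.71, within the range of most tumours. Gstm5 was lowest in it, at 6.07 against 6.21 to 6.68, and Gsto1 lay within the others at 10.77.

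**Figure D5:**
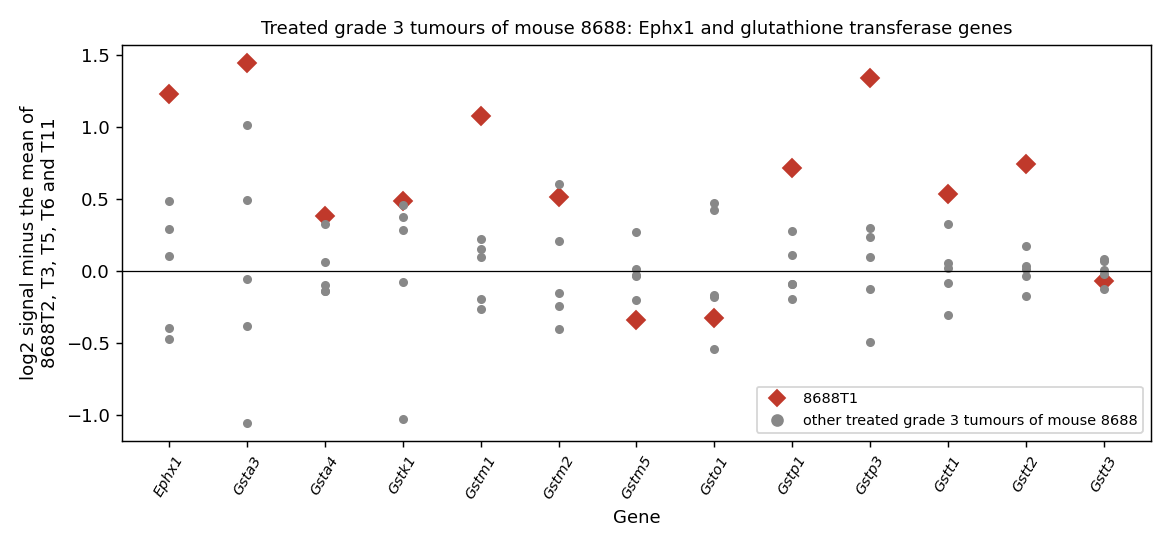
Log2 signal of Ephx1 and the 12 detected Gst genes in the 6 treated grade 3 tumours of mouse 8688, as the difference from the mean of the tumours other than 8688T1 (vertical axis). The red diamond is 8688T1, which lies 1.23 above that mean for Ephx1, 1.44 for Gsta3 and 1.34 for Gstp3, and -0.34 from it for Gstm5.

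Other genes of xenobiotic metabolism were taken in 5 lists. Of the other phase 1 enzymes (38 genes listed, 25 detected), the other conjugating enzymes (26 listed, 7 detected), the drug efflux transporters (10 listed, 6 detected) and the genes of glutathione synthesis and use (13 listed, 11 detected), 0 passed with limma in any of the 5 comparisons. At an unadjusted p under 0.05 these lists gave 1 to 5, 0 to 3, 0 to 1 and 0 to 2 genes per comparison, in the order named, beside 1.93% to 12.5% of all genes. The highest shares were 3 of 7 conjugating enzymes in grade among untreated tumours (beside 12.5%) and in the difference of treatment effects (beside 9.11%), and 5 of 25 phase 1 enzymes in the former. Of the receptors and regulators of xenobiotic genes (23 listed, 14 detected), 1 passed. This was Hnf4a, a nuclear receptor of liver and gut epithelium, which was higher in grade 3 than in grade 2 among untreated tumours by 5.26 (SE 0.813, adjusted p = 0.0112). It measured 6.91, 9.69, 9.02 and 10.03 in the untreated grade 3 tumours, and 2.85, 2.53, 3.49 and 5.43 in those of grade 2. Hnf4a exceeded the array median in these 4 grade 3 tumours and in 8688T3 alone, so the detection rule partly sets its direction; it also stands in the liver and gut list above. With treatment in grade 3 it differed by -3.79 (SE 0.899, adjusted p = 0.072).

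Other genes of these lists with the smallest p-values did not pass. With treatment in grade 3, Mgst2, a microsomal glutathione transferase, differed by -1.03 (SE 0.244, adjusted p = 0.072). Akr1c14, a hydroxysteroid dehydrogenase, differed by 1.39 (SE 0.409, adjusted p = 0.172). Among untreated tumours, grade 3 minus grade 2 was -1.90 for Fmo1 (SE 0.591, adjusted p = 0.207), -1.34 for the alcohol dehydrogenase Adh1 (SE 0.372, adjusted p = 0.162) and -1.44 for the methyltransferase Inmt (SE 0.385, adjusted p = 0.15). Nfe2l2, the regulator of antioxidant response genes, differed by 0.12 with treatment in grade 3 (95% interval -0.29 to 0.54), and Gclc, its textbook target in glutathione synthesis, by 0.16 (95% interval -0.15 to 0.47). Nr1i2 and Nr1i3, the receptors that induce Cyp3a and Cyp2b genes in liver, exceeded the array median in no tumour.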

How the data were processed

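The deposited values are log2 signals of each probe set. The submitters' processing notes name GCRMA 2.20.0 and R 2.11.0, and the authors started from 100 ng of total RNA amplified per the labels' protocols. GCRMA corrects background by probe sequence and quantile normalises, so differences in total RNA are removed. The sources used here do not give scan dates. Of 22690 probe sets, 20380 had 1 symbol; 691 had several and were used for no gene. A gene was tested where it exceeded the array median on 4 or more of 18 arrays (7300 genes), so a gene could enter through 1 group. Group means were fitted over the 18 tumours with limma 3.58.1 (R 4.3.3), taking the mouse as a random block (correlation 0.259, 14 residual and 3.801 prior degrees of freedom) and Benjamini-Hochberg adjustment over all genes at 0.05. The fit uses this correlation to weight tumours, so its differences are not exactly those of the group means. The steps were tested on simulated data. Members, gene lists and tests were chosen with earlier results of these data known. Named members were Ephx1, any called, those with the smallest p-values or separated groups in each comparison, and the highest of each family. The restored gene is not analysed here. Leaving out each untreated mouse with more than 1 tumour was added after seeing the data.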

Additional observations from a re-analysis of the deposited data

Results flagged for a closer look

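Within the groups, 8 values lay far from the other tumours by Dixon's criterion, of 96 member groups examined, where chance gives about 1 in 20. Cyp2j6 was low in 8688T1 at 5.41, where the nearest treated grade 3 tumour had 6.58, and in 8629T12 at 5.53, where the nearest untreated grade 3 tumour had 7.04. Gstm1 was high in 8688T1 at 12.37, with 11.52 next, on the probe set used. On other Gstm1 probe sets, 8688T1 and 8688T5 gave 11.45 and 11.09, or 9.63 and 9.63. Gstk1 was low in 8688T3, the tumour with the highest 3' excess, at 9.07, with 10.01 next. Cyp2s1 was low in 8688T11 at 4.55, with 5.63 next. Among untreated grade 3 tumours, Cyp3a13 was high in 8584T3 at 9.38, with 6.58 next, and Cyp4v3 was low in 8629T12 at 10.00, with 10.73 next. Gstm5 was high in the untreated grade 2 tumour 8565T4 at 7.27, with 6.56 next.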

How the results depend on the processing

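For the 23 member differences followed, 445 of 460 alternative values kept their direction and their side of the threshold, 8 lost the threshold, 5 gained it and 2 turned their sign. All 8 losses were of Ephx1 with treatment in grade 3, the single difference followed that passed in the main fit. It stayed past the threshold in 6 of 10 settings without 1 tumour and in 7 of 11 others. For the remaining differences, keeping their side meant not passing. The turns were Ephx1 with grade among treated tumours (-0.0309 without 8688T1) and with treatment in grade 2 (-0.334 without mouse 8565); the causes were not tested. Counts of all genes called moved more. For treatment in grade 3 (34 genes, 1 member) they were 272 genes and 2 members without an animal term, 0 and 0 over means per mouse, 10 and 0 with sex as a covariate, 64 genes with no filter, 8 and 0 without mouse 8629, and 17 and 0 without mouse 8565. For treatment in grade 2 (5 genes) they were 37, 0 and 2 under the first 3 of these settings, 10 with no filter, 9 with a floor of log2 5, 3 without shared probe sets, 10 without 8688T3 and 8639T4, and 0 without mouse 8565 or mouse 8700. For grade among untreated tumours (13 genes) they were 111 genes and 2 members without an animal term, 0 with the mouse as a fixed block and over means per mouse, 29 with no filter, 22 with the floor, 1 without mouse 8629, 3 without 8565 and 0 without 8700. The difference of the treatment effects gave 1 gene with the sex covariate, 1 without mouse 8629 and 3 without 8565. Leaving out 1 tumour at a time gave 14 to 164 genes and 0 to 3 members for treatment in grade 3 (3 members, adding Cyp2b10 and Cyp4b1, without 8584T3), 2 to 13 genes for treatment in grade 2, -0.0309 to 0.305 for Ephx1 with grade among treated tumours, 0 to 15 for the difference of effects and 2 to 91 for grade among untreated tumours. No paired analysis was possible because replicate numbers, which only name tumours in accession order, pair none of them. The mouse did allow grades to be compared within animals, through the fixed block above. Treatment could not be fitted with the mouse as a fixed block, since no mouse had both states. Signals near background limit the undetected members.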
